A study of Mus musculus with 6 samples.

Results

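The genes of MHC class II antigen presentation were followed in the mouse cortex from day 1 to day 28 post-stroke. The set has 8 genes, chosen by name and not by their values, of 15441 genes with a value in at least 1 library. They are the class II chain genes H2-Aa, H2-Ab1 and H2-Eb1, the peptide-loading chaperone genes H2-DMa and H2-DMb1, the invariant chain gene Cd74, the transactivator gene Ciita and the costimulatory ligand gene Cd86. Of these, 6 genes had a value under their own Ensembl identifier, Cd74 had one only when its events were taken by their position, and Ciita was not listed in any library.

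MHC class II molecules are pairs of an alpha and a beta chain that carry peptides of engulfed proteins to the surface of antigen-presenting cells, where CD4 T cells read them. The pair assembles on the invariant chain CD74, endosomal proteases cut CD74 down to a short fragment in the peptide groove, and the H2-DM chaperone exchanges that fragment for peptide. In the healthy brain class II is sparse and is found mainly on macrophages at the borders and on a few dendritic cells, and it is a known marker of reactive microglia and of blood-derived myeloid cells after injury.

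Male C57/BL6J mice aged 6 to 8 weeks, with no genetic modification named, received photothrombosis, in which light closes cortical vessels after a photosensitive dye is injected, or a sham operation. RNA of the whole ipsilateral cortex was pooled from 3 mice per group and sequenced as 6 libraries, with 1 library for the sham-operated control, taken at day 7 after the operation, and 1 for each of day 1, day 3, day 7, day 14 and day 28 post-stroke. Since there is 1 library per group, differences between libraries could not be checked in replicates, no test was possible, and the values carry no SD. The 5 comparisons with control share the control library, so an odd value there would enter all of them. In whole tissue, more cells of a type and more RNA per cell cannot be told apart.

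The deposited values are FPKM, read fragments scaled by transcript length and by the mapped total of the library, so levels of different genes are on a scale per length. They are given for transcript starts, transcript ends and splicing events, and the value of a gene is the largest of its summed starts, its summed ends and any single event. A gene with no event in a library is called not listed, which is not the same as not expressed, as Cldn5, a gene of every brain vessel, was listed on day 1 only, at 1.03 FPKM. The depth of each library is unknown, and between 83501 (day 14) and 99187 (day 7) events were listed per library. Ratios are log2((FPKM + 0.1)/(control FPKM + 0.1)) of genes with at least 1 FPKM in 1 of both libraries, and a gene is called higher or lower from a log2 ratio of 1 on. Markers of the cortex were present in the 6 libraries, with the neuronal vesicle gene Slc17a7 between 164 FPKM (day 14) and 303 FPKM (control).

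All class II chain and H2-DM genes lie in the H2 complex on chromosome 17, and 2 stretches of promoter sequence are shown. The genes that follow them are an alpha and a beta chain gene. Both stretches were picked for holding the promoter motifs described next and for lying outside annotated exons, not for the values of the genes. Class II promoters carry a shared module in which an X box is bound by the RFX proteins, an adjoining X2 box by CREB and a Y box by NF-Y, and CIITA docks on these without touching DNA. The sequences are the 120 bases before the RefSeq start of the gene (GRCm38.p6), 5′ to 3′ on the strand of the gene, and capitals mark letters of the X box (AACNGATG), the X2 box (TGACGTCA) or the Y box core (GATTGG), the last also where it lies on the opposite strand as CCAATC.
H2-Aa, chr17:34287824-34287943, minus strand: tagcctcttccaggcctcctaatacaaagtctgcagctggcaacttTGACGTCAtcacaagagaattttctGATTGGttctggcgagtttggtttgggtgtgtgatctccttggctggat
H2-Eb1, chr17:34305747-34305866, plus strand: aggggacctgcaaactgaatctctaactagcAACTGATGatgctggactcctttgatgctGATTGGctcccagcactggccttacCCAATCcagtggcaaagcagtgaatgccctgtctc

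In H2-Eb1 the X box began 89 bases and the Y box 60 bases before the start, so they were 29 bases apart. H2-DMb1 held the same X box letters, AACTGATG, 92 bases before its RefSeq start and a Y box core 30 bases further on, in a stretch that the GENCODE M21 annotation counts as exon and that is therefore not printed. In H2-Aa the X2 letters stood 74 bases and the Y core 49 bases before the start, 25 bases apart. Neither of the 2 windows of H2-DMa held the X box or X2 box letters. Over all 32851 RefSeq promoter windows of the same length, 250 bases before to 50 after a start, the X box letters were in 2.32%, the X2 letters in 1.79% and the Y core in 16.1%, on either strand. An X box followed by a Y core on the strand of the gene, with starts within 40 bases, was in 7 windows, which is 0.0213%. These were the windows of H2-Eb1, H2-DMb1, H2-Eb2, H2-DMb2, BC051142, G3bp2 and Scgb2b20. The letters searched were chosen with the windows of the members in view, and a match is a description of letters, not of a bound site. H2-Eb2 and H2-DMb2, which share the pairs of motifs, were not listed and under 1 FPKM, respectively. No window was used for H2-Ab1, Cd74, Ciita or Cd86.

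H2-Aa encodes the alpha chain of the I-A molecule, a class II pair of the mouse (ENSMUSG00000036594, chromosome 17, 34282744 to 34287823, minus strand). Its value was 1.16 FPKM in control, 1.84 on day 1, 5.47 on day 3, 6.23 on day 7, 11.1 on day 14 and 2.38 on day 28. The level was lowest in control, stood close together on day 3 and day 7, was highest on day 14 and had come down most of the way by day 28. The log2 ratio to control was 0.63 on day 1, 2.15 on day 3, 2.33 on day 7, 3.16 on day 14 and 0.98 on day 28, and the fold on day 14 was 9.60. Of the 12045 genes compared on day 14, 241 had a larger ratio. The summed starts, the summed ends and the splicing events of H2-Aa gave the same value in each library.

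H2-Ab1 encodes the beta chain that pairs with H2-Aa (ENSMUSG00000073421, chromosome 17, 34257689 to 34269419, plus strand). It stood at 0.782 FPKM in control, 1.46 on day 1, 4.82 on day 3, 4.42 on day 7, 8.83 on day 14 and 2.02 on day 28. As for its partner, day 14 was the highest library and control the lowest, with day 3 and day 7 alike. In the order of the days, the log2 ratio to control was 0.82, 2.48, 2.36, 3.34 and 1.27, and 228 of 12045 genes had a larger ratio on day 14. On day 14 the main start, at 34263209, carried 8.36 FPKM, and the remaining starts, inside the gene, 0.082 and 0.391 FPKM. The main start was not listed on day 1, so the day 1 value comes from the transcript end. The ratio of H2-Aa to H2-Ab1, both parts of 1 protein pair, stayed between 1.13 (day 3) and 1.48 (control) while the 2 genes each varied over several fold.

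H2-Eb1 encodes the beta chain of the I-E molecule, whose alpha chain is lost in C57BL/6 mice, where H2-Ea is annotated as a pseudogene (ENSMUSG00000060586, chromosome 17, 34305867 to 34316674, plus strand). Its value was 0.752 FPKM in control, 1.40 on day 1, 5.46 on day 3, 5.29 on day 7, 6.89 on day 14 and 1.35 on day 28. The days 3, 7 and 14 formed a plateau, with day 14 at 1.26 times the next highest library, against 1.78 for H2-Aa and 1.83 for H2-Ab1. The log2 ratio to control was 2.71 on day 3, 2.66 on day 7 and 3.04 on day 14, and on day 28 it was 0.76, close to the 0.82 of day 1. The pseudogene H2-Ea-ps had no event in any library. Summed over H2-Aa, H2-Ab1 and H2-Eb1, the chain genes had 2.69 FPKM in control, 4.70 on day 1, 15.8 on day 3, 15.9 on day 7, 26.8 on day 14 and 5.75 on day 28.

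**Figure D1:**
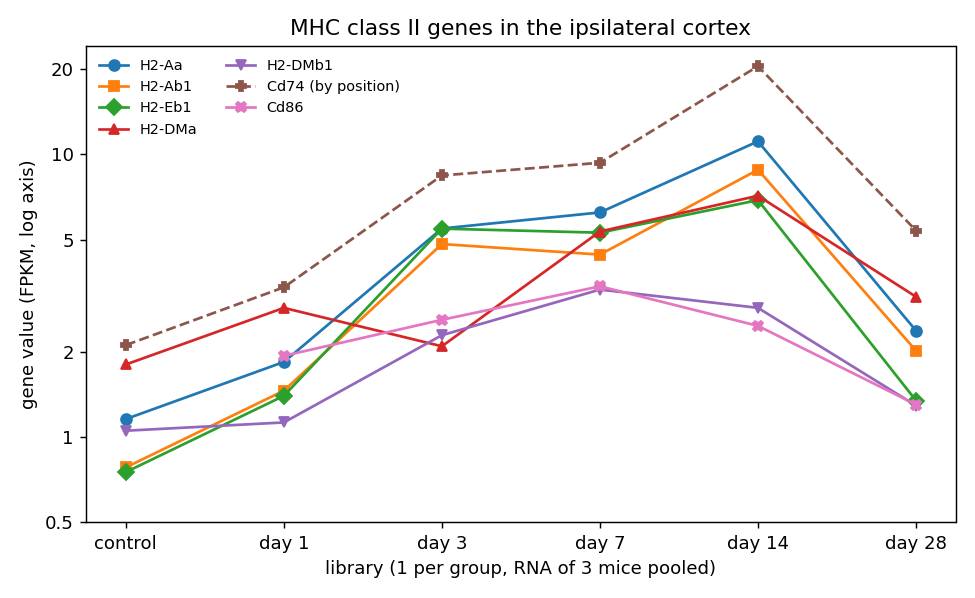
Gene value in FPKM on a log axis against the 6 libraries, 1 per group, for the 7 members with a value; lines join the libraries of a gene and the dashed line is Cd74 taken by position. H2-Aa, H2-Ab1, H2-Eb1, H2-DMa and Cd74 have their highest point on day 14 and H2-DMb1 and Cd86 on day 7, and Cd86 has no point in control, where it was not listed.

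The chaperone H2-DM, a pair of H2-DMa and H2-DMb1 that frees the peptide groove, stood at lower ratios. H2-DMb1, its beta chain (ENSMUSG00000079547, chromosome 17, 34153072 to 34160230, plus strand), had 1.05 FPKM in control, 1.13 on day 1, 2.29 on day 3, 3.33 on day 7, 2.87 on day 14 and 1.29 on day 28. It was thus highest on day 7, with day 14 slightly below and day 1 near control. The log2 ratio to control was 0.09, 1.05, 1.57, 1.36 and 0.27 in the order of the days.

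H2-DMa, the alpha chain (ENSMUSG00000037649, chromosome 17, 34119541 to 34139101, plus strand), had 1.81 FPKM in control, 2.87 on day 1, 2.10 on day 3, 5.34 on day 7, 7.14 on day 14 and 3.14 on day 28. Its level was the highest of the chain and chaperone genes in control and was highest on day 14. The log2 ratio to control was 0.64 on day 1, 0.20 on day 3, 1.51 on day 7, 1.93 on day 14 and 0.76 on day 28. The day 7 value rests on 2 starts listed in that library alone, at 34122658 with 4.09 FPKM and at 34125859 with 1.24 FPKM, whereas the shared transcript end at 34138817 gave 1.94 FPKM on day 7. By ends alone the day 7 log2 ratio was 0.10, and by starts alone 2.69, so day 7 cannot be called for H2-DMa, whereas day 14 rests on the end, at 7.14 FPKM. The ratio of H2-DMa to H2-DMb1 ran from 0.914 (day 3) to 2.54 (day 1), a wider span than for the I-A pair.

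Cd74 encodes the invariant chain, which is also a surface receptor for the cytokine MIF (ENSMUSG00000024610, chromosome 18, 60803848 to 60812652, plus strand). No event carried its identifier. Its 17 events carried the identifier of Mir5107, a microRNA gene annotated inside the span of Cd74 at 60812076 to 60812163, and none of that identifier's events lay outside Cd74, so they were read by position, a step chosen after the data were seen. The value was then 2.12 FPKM in control, 3.39 on day 1, 8.43 on day 3, 9.34 on day 7, 20.5 on day 14 and 5.38 on day 28. Cd74 was the most abundant member in each of the 6 libraries and followed the order of H2-Aa, with day 14 at 2.20 times the next highest library. The log2 ratio to control was 0.65, 1.94, 2.09, 3.22 and 1.31 in the order of the days. The ratio of Cd74 to H2-Aa lay between 1.50 (day 7) and 2.26 (day 28).

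Cd74 transcripts differ by an exon of 192 nt, 64 codons, which is in 2 annotated transcripts and adds a thyroglobulin-type domain that is known to inhibit cathepsins. Transcripts with the exon had 1.40 FPKM on day 1, 3.06 on day 3, 1.42 on day 7, 5.08 on day 14 and 1.35 on day 28, and this form was not listed in control. Transcripts without the exon had 1.50 FPKM in control, 1.99 on day 1, 5.37 on day 3, 7.92 on day 7, 15.4 on day 14 and 4.03 on day 28. The shorter form was therefore the larger part in the 5 libraries with both. The share with the exon was 41.3% on day 1, 36.3% on day 3, 15.2% on day 7, 24.8% on day 14 and 25.2% on day 28. In control the start exceeded the form without the exon by 0.619 FPKM, so the missing entry does not show that the form was absent. In each of the 5 libraries with both forms, this difference equalled the FPKM of the form with the exon. The shares have no error, since no read counts were used here.

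**Figure D2:**
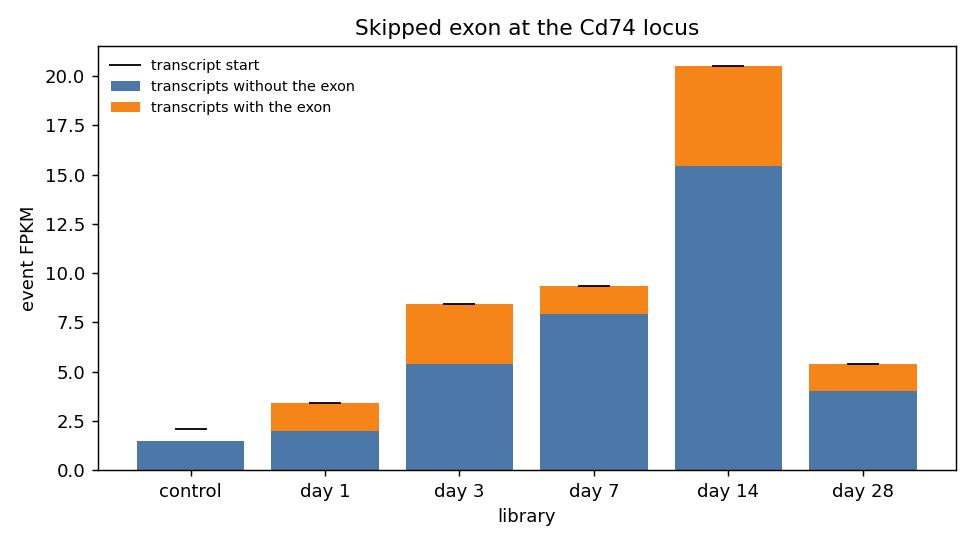
Event FPKM at the Cd74 locus in each library, stacked for transcripts without (blue) and with (orange) the 192 nt exon; the black line is the FPKM of the transcript start. Both forms are largest on day 14, at 15.4 and 5.08 FPKM, and in control the start lies above the form without the exon, which is the only form listed there.

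Ciita encodes the class II transactivator, which is itself controlled at the level of transcription and on which class II expression depends (ENSMUSG00000022504, chromosome 16, 10480059 to 10528418, plus strand). It had no event under its identifier and none at its position in any of the 6 libraries, so no value is given. Cd86, also known as B7-2, binds CD28 and CTLA4 on T cells (ENSMUSG00000022901, chromosome 16, 36603869 to 36666081, minus strand). It was not listed in control and stood at 1.94 FPKM on day 1, 2.60 on day 3, 3.42 on day 7, 2.47 on day 14 and 1.30 on day 28. Cd86 was therefore highest on day 7, and on day 1 it was already above the 1.84 FPKM of H2-Aa. No fold against control is given. Nearly all of its value came from 1 start, with a further start of 0.171 FPKM on day 3.

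Counted over the members with a value of their own, 1 of 6 was higher than control on day 1, where 5.11% of 11790 genes were higher, and that 1 was Cd86, taken as 0 in control. On day 3, 5 of 6 were higher, against 8.54% of all genes, with H2-DMa the exception. All 6 were higher on day 7, or 5 when H2-DMa is read by its end, against 8.53% of all genes, and all 6 on day 14, against 8.97%. Of the genes with a longest transcript of at most 2000 nt, 16.6% were higher on day 14. With the trend by transcript length given below removed, 5 of 6 members were higher on day 14, against 7.46% of all genes. On day 28, 2 of 6 were higher, H2-Ab1 and Cd86, against 3.68% of all genes. No member was lower than control, where 4.48% of all genes were lower on day 1, 2.53% on day 3, 2.12% on day 7, 6.92% on day 14 and 2.79% on day 28. Cd74 by position adds 1 to the count of higher genes on day 3, 7, 14 and 28. The median log2 ratio of the members listed in both libraries was 0.64 on day 1, 2.15 on day 3, 2.33 on day 7, 3.04 on day 14 and 0.76 on day 28, and over all genes it lay between 0.01 (day 1) and 0.10 (day 14).

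**Figure D3:**
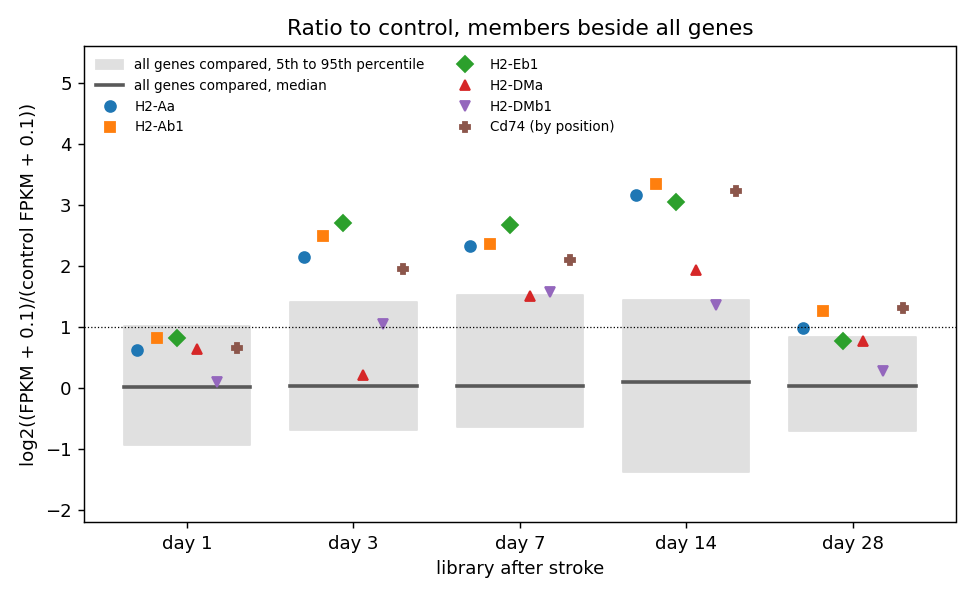
Log2 ratio to control (pseudocount 0.1) at the 5 days for the members listed in control; grey boxes span the 5th to 95th percentile of all genes compared, the dark lines are their medians and the dotted line is the threshold of 1. H2-Aa, H2-Ab1, H2-Eb1 and Cd74 lie above the box on day 3, 7 and 14. H2-DMb1 lies inside it on day 3, at 1.05, and on day 14, at 1.36, and just above it on day 7, at 1.57. H2-DMa on day 3, at 0.20, lies inside it.

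From 1 time point to the next, the largest step up was from day 1 to day 3, when 3 of 6 members were higher, against 8.89% of all genes. These were the chain genes, with log2 ratios of 1.52 for H2-Aa, 1.66 for H2-Ab1 and 1.89 for H2-Eb1, and Cd74 stood at 1.29. H2-DMa was at -0.43 in the same step, and no member was lower, against 3.55% of all genes. From day 3 to day 7, H2-DMa alone was called, on the starts described above, against 3.22% of all genes, and the 3 chain genes lay between -0.12 and 0.19, with no member lower, against 2.81%. From day 7 to day 14 none of the 6 was called higher or lower, against 4.17% and 8.52% of all genes, with log2 ratios of 0.83 for H2-Aa, 0.98 for H2-Ab1 and 0.38 for H2-Eb1, while Cd74 passed the threshold with 1.13. From day 14 to day 28, 5 of 6 were lower, against 7.88% of all genes, and none was higher, against 6.94%. The log2 ratios of that step were -2.18 for H2-Aa, -2.07 for H2-Ab1, -2.27 for H2-Eb1, -1.16 for H2-DMa, -1.09 for H2-DMb1 and -1.91 for Cd74, and Cd86 was at -0.88.

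Day 14 was the highest library for 4 of the 6 members and for Cd74, and day 7 for H2-DMb1 and Cd86. Of the 4732 genes whose log2 values span at least 1, day 14 was the highest library for 23.7% and day 7 for 19.7%. The day 14 library, and less so day 1, also differed by transcript length. Across genes, which cannot stand for replicates, longest transcript length and log2 ratio to control gave a Spearman rho of -0.413 on day 14, -0.254 on day 1 and between -0.0893 and 0.00325 on the other days, and genes of at most 2000 nt had a median log2 ratio of 0.39 on day 14 against 0.10 for all genes. The longest transcripts of H2-Ab1, H2-Eb1, H2-DMb1 and Cd74 are under 2000 nt, so the day 14 values of the members were also computed with this trend removed. They were then 10.5 FPKM for H2-Aa, 6.55 for H2-Ab1, 5.50 for H2-Eb1, 5.85 for H2-DMa and 15.5 for Cd74. Each was still above day 7, with 6.26, 4.15, 4.96, 5.15 and 8.77 FPKM, where that of H2-DMa rests on the starts described above. On day 3, with the trend removed, H2-Ab1 had 4.82 FPKM and H2-Eb1 had 5.39 FPKM. For H2-Eb1, day 14 was therefore barely above day 3. For H2-DMb1 the day 14 log2 ratio to control went from 1.36 to 0.97 and so under the threshold.

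The other class II chains and chaperones were low. H2-Oa, the alpha chain of H2-DO, which restrains H2-DM in B cells and some dendritic cells, had 0.391 FPKM in control, 0.860 on day 3, 0.740 on day 7 and 0.743 on day 14, and was not listed on day 1 and day 28. H2-Ob, its partner, reached at most 0.750 FPKM, on day 7, and H2-DMb2, a near copy of H2-DMb1, at most 0.993 FPKM, also on day 7. Reads that fit both H2-DMb copies could have been counted for either. None of the 3 genes reached the 1 FPKM needed for a comparison.

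Over the 9 lists of other genes of the pathway, 57 names with 46 genes listed, 2 of 35 genes compared were higher than control on day 1, 13 of 37 on day 3, 18 of 36 on day 7, 17 of 37 on day 14 and 0 of 33 on day 28. Over all genes, the higher shares were 5.11%, 8.54%, 8.53%, 8.97% and 3.68% in the order of the days, which puts the day 1 count of the lists near that of all genes. Lower genes numbered 1 on day 1 and 2 on day 14, where 4.48% and 6.92% of all genes were lower, and none on the other days. The median log2 ratio of these genes was 0.24, 0.65, 0.94, 0.90 and 0.09 in the order of the days.

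Among them are the endosomal proteases. These enzymes cut CD74 and antigen, and with the reductase Ifi30 the group has 8 genes, of which 8 of 8 compared were higher on day 3, 7 of 7 on day 7, 5 of 7 on day 14 and 0 of 7 on day 28, against 8.54%, 8.53%, 8.97% and 3.68% of all genes. Ctss, the cathepsin that makes the last cuts in CD74 in many antigen-presenting cells, had 43.4 FPKM in control, 52.8 on day 1, 143 on day 3, 196 on day 7, 178 on day 14 and 58.8 on day 28. Ctsd had a log2 ratio of 3.24 on day 7, Ctsz of 2.47, Ctsh of 2.21, Ctsl of 1.91, Lgmn of 1.50 and Ctsb of 1.49. In contrast to the class II chains, none of the 8 was highest on day 14: 6 were highest on day 7, and Ctsh and Ifi30 on day 3. Ifi30, which reduces disulfide bonds in antigens, was listed on day 3 only, at 5.89 FPKM. It entered the day 3 count with control taken as 0. Its call and its day 3 maximum may therefore be a matter of listing.

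The factors that bind the class II promoter module were not among the higher genes. Of 7 genes, none was higher than control on any day, where 3.68% to 8.97% of all genes were, so a count of 0 among 7 is near the share over all genes. Rfx5, the DNA-binding subunit of the RFX complex, had 3.13 FPKM in control, 1.93 on day 1, 3.58 on day 3, 2.40 on day 7, 2.90 on day 14 and 3.05 on day 28, and Rfxap, Rfxank and the NF-Y genes Nfya, Nfyb and Nfyc stayed within the threshold. Creb1 was lower on day 1, with a log2 ratio of -1.08, and on day 14, with -2.68, or -2.38 with the length trend removed. Of its starts and ends, 3 were listed in control and 1 on day 14. By its starts alone the log2 ratio was -0.17 on day 1, 1.14 on day 3 and -1.77 on day 14. The day 1 call therefore rests on the way the gene value was built. So does the count of 0 higher factors, since Creb1 would be higher on day 3 by its starts.

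Interferon gamma is the classical inducer of Ciita and class II. Its gene Ifng was not listed in any library, and its receptor genes Ifngr1 and Ifngr2 and the kinases Jak1 and Jak2 did not pass the threshold on any day. Irf1, an interferon-induced transcription factor gene, was higher on day 1, 7 and 14, with log2 ratios of 1.08, 1.16 and 1.45. It also responds to other interferons.

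Genes that act on class II after its synthesis differed among themselves. March1, a ligase that marks class II and CD86 for removal from the surface, was lower on day 14, with 0.371 FPKM against 5.03 in control and a log2 ratio of -3.45, and was back at 5.03 FPKM on day 28. On day 14 no start and no end of March1 was listed, so that value comes from a single other event. March8, a related ligase, stayed between 9.15 (day 14) and 14.4 FPKM (day 7). Tmem106a reached 3.40 FPKM on day 7, with a log2 ratio of 2.21, and the endosomal tetraspanin gene Cd63 was higher on day 3, 7 and 14, with 107, 102 and 93.6 FPKM against 43.4 in control.

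On the side of CD74 as a receptor, its ligand gene Mif did not pass the threshold, with 118 FPKM (day 28) to 195 FPKM (day 14). Cd44, its signalling partner, was higher from day 1 to day 14, with log2 ratios of 2.59, 2.99, 2.74 and 2.54, and stood at 0.649 FPKM on day 28 against 0.582 in control. Cd44 thus was high on day 1, before the class II chains. Cxcr4 was not listed, and Cxcr2 only on day 1.

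Other costimulatory genes differed. Cd80, the B7-1 counterpart of Cd86, was not listed in control and reached at most 0.935 FPKM, on day 14, and Cd40 at most 0.759 FPKM, also on day 14. Cd83, a surface marker of activated antigen-presenting cells that counters MARCH1, was higher on day 7 and day 14, with log2 ratios of 1.25 and 1.10. Cd274, which encodes PD-L1, was not listed in control and reached 1.06 FPKM on day 14.

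Among the receptors of T cells for class II, Cd4 had 2.56 FPKM in control, 1.83 on day 1, 1.49 on day 3, 2.78 on day 7, 4.43 on day 14 and 3.95 on day 28, and passed the threshold on no day. Lag3, an inhibitory receptor of class II that neurons and microglia also express, had 2.72 FPKM in control, 2.76 on day 1, 5.53 on day 3, 12.9 on day 7, 16.9 on day 14 and 3.72 on day 28. Like the class II chains, it was highest on day 14. Cd28, the receptor of CD86, reached at most 0.0388 FPKM, and Ctla4 and Icos were not listed.

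The class I genes, which present peptides of the cell's own proteins to CD8 T cells, shared the day 14 maximum: 4 of 6 were highest there, against 23.7% of the genes that span at least 1 on the log2 scale. H2-K1 had 9.38 FPKM in control and 43.1 on day 14, H2-D1 11.1 and 58.2, the shared light chain B2m 71.1 and 308, and the peptide transporter Tap1 0.664 and 3.72. With the length trend removed, their day 14 log2 ratios to control were 1.86, 2.09, 1.69 and 2.27 in this order. The uncorrected day 7 ratios were 1.10, 2.02, 1.75 and 2.05. Day 7 ratios with the trend removed are not given here for these genes. Whether the day 14 maximum of B2m is kept with the trend removed on both days therefore cannot be said. Of the 6 genes, 3 were higher on day 3, 4 on day 7, 4 on day 14 and none on day 28, against 8.54%, 8.53%, 8.97% and 3.68% of all genes. Tap2 and Tapbp passed the threshold on no day.

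**Figure D4:**
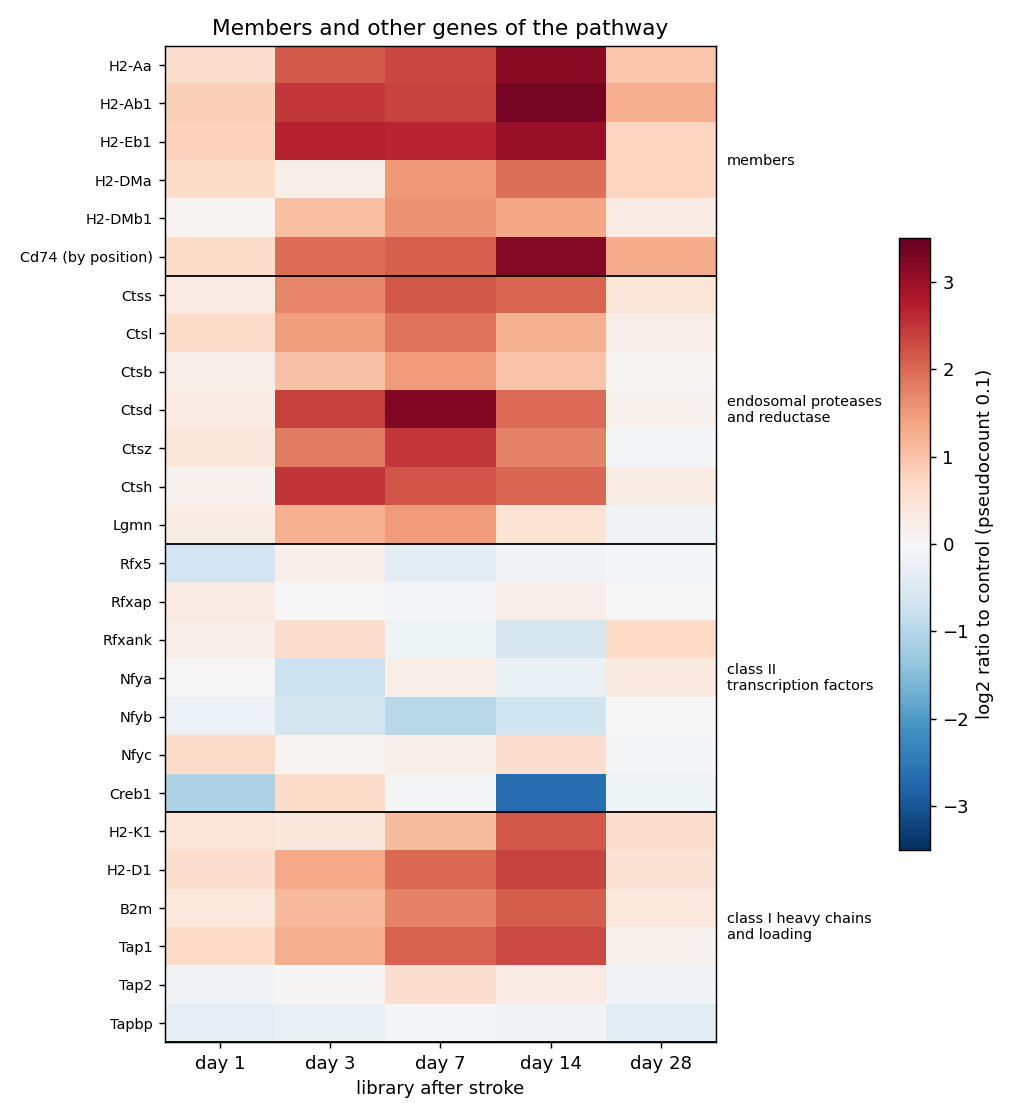
Log2 ratio to control (pseudocount 0.1, colour scale from blue for lower to red for higher) at the 5 days for members and pathway genes of 3 other lists with a value in all 6 libraries. The class II chain genes and Cd74 are darkest on day 14 and the proteases on day 7, except Ctsh, which is darkest on day 3. Ctss is darker on day 14, at 2.03, than on day 3, at 1.71. Among the transcription factors Creb1 on day 14, at -2.68, is the only deep colour, in a library where 1 of its 3 start and end events of control was listed.

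Class II can be carried by several cell types, and their markers moved in the same libraries, so the marker lists are given beside the members. Summed over the 8 microglial markers, the level was 118 FPKM in control, 103 on day 1, 253 on day 3, 315 on day 7, 217 on day 14 and 118 on day 28. The monocyte and infiltrating macrophage list of 7 genes had 8.03, 13.8, 146, 367, 206 and 29.9 FPKM in the same order, most of it from Lyz2, with 357 FPKM on day 7. The border-associated macrophage list of 6 genes had 8.46, 9.70, 32.7, 29.7, 18.7 and 7.36 FPKM. These 3 myeloid sums were highest on day 3 or day 7, whereas that of the class II chains was highest on day 14. Without Lyz2, left out with its values known, the monocyte list had 9.48 FPKM on day 3, 10.1 on day 7 and 9.89 on day 14, against 1.30 in control. In that sum F13a1 had 4.98 FPKM on day 3 and 4.42 on day 7. It was not listed on day 14, where it adds nothing, and was listed again on day 28, at 1.45 FPKM. The order of these days without Lyz2 therefore depends on that missing entry. Of these lists, Ly6c2 and Plac8, with 3.56 and 2.42 FPKM, and the microglial genes Aif1 and Cx3cr1, with 15.2 and 1.84 FPKM, were highest on day 14. Cx3cr1 was listed only on day 14 and, at 0.098 FPKM, on day 1, so its day 14 maximum may be a matter of listing. The day 14 log2 ratio of Aif1 went from 1.75 to 1.33 with the length trend removed, beside an uncorrected 1.37 on day 3. Among the pan-leukocyte genes, Ptprc, the gene of CD45, was highest on day 14, with 3.40 FPKM against 0.836 in control, and Laptm5 on day 7, with 44.1 against 11.8 in control. Coro1a, also on that list, had 53.0 FPKM in control and 54.1 on day 14.

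The dendritic cell list, cells named for antigen presentation, had 7 of 9 genes listed and summed to 3.75 FPKM in control, 3.26 on day 1, 3.68 on day 3, 6.92 on day 7, 7.61 on day 14 and 3.56 on day 28. Flt3 was highest on day 14, with 2.05 FPKM against 0.811 in control, Itgax reached 1.90 FPKM on day 7 and 1.47 on day 14, and Ccr7, a gene of migrating dendritic cells, was listed on day 14 only, at 0.404 FPKM. Zbtb46, in contrast, was highest in control, with 2.04 FPKM, and lay between 1.29 (day 1) and 1.67 FPKM (day 14) after stroke. The defining genes Xcr1 and Clec9a were not listed in any library. Of 6 B cell genes, 2 were listed, with Cd79a at most 1.03 FPKM, on day 14, and Ms4a1 and Pax5 were not listed. Ighm was listed by position only, with 12.95 FPKM in control and 8.09 to 11.7 FPKM after stroke, from a locus that reaches beyond the gene. Of 8 T cell genes, 5 were listed, with Cd3d and Cd3e at most 0.479 and 0.131 FPKM, both on day 14, and Cd3g and Cd8a not listed. Trbc2 was highest in control, at 11.4 FPKM. The part of each cell type in the class II values was not tested.

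The genes most like the members in time were named by the Pearson r of their log2(FPKM + 0.1) with the mean centred profile of the 6 members over the 6 libraries, among the 3583 genes outside the set that were listed in all libraries, reached 1 FPKM and spanned at least 1 on the log2 scale. Cd86, not listed in control, entered the profile there as 0 FPKM, which lowers its control point, and the ranking without Cd86 was not computed. The points share the libraries and the control, and 151 of these genes, 4.21%, had an r above 0.9, so a high r is common. The 10 highest were Batf3 (0.998), Ifi27l2a (0.996), Eml3 (0.994), Tlk2 (0.991), H2-T10 (0.987), Acads (0.987), Gbp2 (0.987), Pfkfb4 (0.986), Rnf213 (0.985) and Ncf4 (0.984). Batf3, a transcription factor gene on the dendritic cell list, had 0.401 FPKM in control, 0.673 on day 1, 1.07 on day 3, 1.33 on day 7, 1.44 on day 14 and 0.737 on day 28. Ifi27l2a, an interferon-inducible gene, ran from 0.254 FPKM in control to 15.9 on day 14. Cd74 by position had an r of 0.956, at rank 41.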

How the data were processed

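RNA of the whole ipsilateral cortex, pooled from 3 mice per group, was analysed in 6 libraries (poly(A), strand-specific, paired-end reads of 150 bases, stated average 33.6 M reads per sample). The submitters' processing notes name Trimmomatic 0.30, HISAT2 2.0.1, HTSeq 0.6.1 and the mm10 build. The tool that made the event tables is not given in the sources used here. The authors deposited FPKM for transcript starts, transcript ends and splicing events; events at 0 are left out of the tables. Depth per library is unknown, so no interval or floor is given.

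For each gene and library the largest of summed starts, summed ends and any single event was taken. Events were assigned by the authors' Ensembl identifier, and 15411 of 15441 identifiers matched GENCODE M21 (GRCm38, the assembly of mm10). Another 879 loci without an identifier were left out, and 93.3% of events lay inside the span of their gene. Cd74 was added by position after the data were seen. Genes with at least 1 FPKM in 1 of both libraries were compared by log2 ratio with a pseudocount of 0.1 and a threshold of 1. A gene not listed was taken as 0 in counts, in sums, in the mean profile and in medians that include Cd86, with no ratio given for it. The same rule over all genes gave the background shares.

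The members and lists were chosen with earlier results of these data known. Named were the members, the list genes that passed the threshold against control on some day or that define their list (a choice of these is given with values, and some list genes are not reported here), and the 10 genes of highest r. The length trend is the median log2 ratio to control over 20 bins of the longest transcript. Motifs were searched on both strands of RefSeq promoter windows. With 1 library per group no test was run. The steps were tested on simulated data. In all, 12 alternatives were set at the start and 2 added. The tools were matplotlib 3.10.9, scipy 1.17.1, numpy 2.4.6 and pandas 2.3.3 under Python 3.11.15.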

Additional observations from a re-analysis of the deposited data

Results flagged for a closer look

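Cd74 stands out because its signal lies in events that the comparisons by gene identifier did not use, all of which carry the identifier of the microRNA gene Mir5107. Against 2.12 FPKM in control, these events gave 3.39 FPKM on day 1, 8.43 on day 3, 9.34 on day 7, 20.5 on day 14 and 5.38 on day 28. A comparison by identifier alone therefore lists Mir5107 with these values and Cd74 with none.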

How the results depend on the processing

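The step of H2-DMa from day 3 to day 7 turned with summed ends, from 2.10 to 1.94 FPKM, and no called ratio to control of H2-Aa, H2-Ab1, H2-Eb1, H2-DMa or H2-DMb1 changed sign. With Cd86 taken as 0 in control, the medians of the 6 members at day 3, 7 and 14 were 2.31, 2.35 and 3.10, and with a pseudocount of 1 they were 1.65, 1.68 and 1.98. The count of members higher than control at day 1 was 5 with a threshold of 0.5 and 0 among genes listed in both libraries. At day 28 it was 5 with a threshold of 0.5, and 1 with a threshold of 2, a pseudocount of 1 or genes listed in both libraries. From day 1 to day 3 it was 0 with a threshold of 2 and 5 with Cd74 by position and the length trend removed. From day 3 to day 7 it was 2 with a threshold of 0.5, and 0 with a threshold of 2 or with summed ends. From day 7 to day 14 it was 2 with a threshold of 0.5, and 1 with summed ends or with Cd74, and with summed starts 1 member was lower. From day 14 to day 28 the count of lower members was 3 with a threshold of 2, a pseudocount of 1 or the length trend removed. Median-ratio scaling shifted the log2 ratios to control by at most 0.10. The other 227 values of counts and medians stayed within 1.5 times of those reported. For single members, 280 values stayed and 10 moved, 8 of them with the pseudocount and 2 for H2-DMa at day 7 with starts or ends. No paired analysis was possible because each group has 1 library, and for the same reason no library could be left out.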

Other observations

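Cd74 was not the only gene whose events carried the identifier of another gene. Among the marker lists, exons of the B cell gene Ighm had events under Gm24022, those of the T cell gene Lck under Mir8119 and those of the oligodendrocyte gene Mobp under Gm38642. These genes count as not listed in the lists above. By position, Lck had 0.710 FPKM in control, 0.182 on day 1, 0.542 on day 3, 0.862 on day 7, 1.10 on day 14 and 0.472 on day 28.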
